A study of Homo sapiens with 2 samples.

Results

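The transcription factors that specify red blood cells were followed in THP1 cells with and without bortezomib (bort). They comprised GATA1, KLF1, TAL1, NFE2, LMO2, LDB1, GFI1B, ZFPM1, GATA2 and MYB, were found in the table by symbol, and made up 10 of the 10987 genes listed. The set was proposed after the low GATA1 and KLF1 values of the bort-treated library had been seen, so it was chosen by its FPKM values in these libraries, and its levels and fold changes are given as a description. THP1 is an established human monocytic leukaemia cell line that carries the MLL-AF9 fusion. RNA was sequenced from 1 library of cells treated with bort, an inhibitor of the 26S proteasome, for 24 h and from 1 library of untreated cells, with no bort concentration in the sample labels. The study asked how bort acts on MLL-rearranged leukaemia cells.

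GATA1 is a zinc finger protein that binds GATA letters in DNA and is required for the maturation of red cells and megakaryocytes. In erythroid cells it works in a complex in which TAL1 binds E-box letters and LMO2 and LDB1 join the DNA-bound proteins and bring enhancers to promoters. KLF1 binds CACCC boxes of globin and membrane protein genes, NFE2 acts at the locus control regions of the globin genes, and GATA2 and MYB belong to the progenitor stage that precedes them. In monocytic cells GATA1 and KLF1 are normally silent or low, while SPI1 and the C/EBP proteins direct the lineage.

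The labelled cell type was checked against marker genes. Of 18 erythroid markers 16 were listed, with a summed level of 4791 FPKM in the untreated and 4373 FPKM in the bort-treated library. FPKM are fragments counted relative to transcript length and to the size of the library. By the fold change defined below, 5 of the 16 were lower by 2-fold or more with bort, beside 10.2% of all genes. Another 5 had a higher level with bort. With the trend by GC content removed, as described below, 4 were lower, beside 6.11% of all genes. Of 20 monocytic and myeloid markers 8 were listed, with a summed level of 22.3 and 58.2 FPKM, and the defining markers CD14, CSF1R and MPO were not among the listed genes. The highest marker of that list was LYZ, the lysozyme of monocytes and granulocytes, at 7.61 FPKM untreated and 28.7 FPKM with bort. Both libraries thus held abundant erythroid and few monocytic transcripts, which goes against the label, and they are called here by their labels only. The megakaryocytic list had 5 of 14 markers listed, with a summed level of 183 FPKM untreated and 13.4 FPKM with bort. Of this sum GP1BB, which shares exon bases with SEPT5, held 177 FPKM untreated and 5.38 FPKM with bort (−4.80 on the log2(FPKM + 1) scale). The lymphoid list had 2 of 12 markers listed. Depth is unknown, since too few low values were present to recover what 1 read was worth. With 1 library per condition there is no replicate error, no test was made, and neighbours in an order of levels cannot be set against a spread.

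All 10 members were at 1 FPKM or more in both libraries. In the untreated library they ranged from 8.93 FPKM for ZFPM1 to 161 FPKM for GATA1, and in the bort-treated library from 2.03 FPKM for ZFPM1 to 48.7 FPKM for GATA1. Their summed level was 562 FPKM untreated and 176 FPKM with bort, a change of −68.6%, against medians of 5.85 and 6.02 FPKM over all genes. In these bulk libraries fewer cells of a type and less RNA per cell cannot be told apart. Untreated cells had the order GATA1, KLF1, NFE2, LDB1, LMO2, GATA2, MYB, GFI1B, TAL1 and ZFPM1. With bort the order was GATA1, GATA2, LDB1, TAL1, NFE2, KLF1, MYB, LMO2, GFI1B and ZFPM1. GATA1 stayed at the top while KLF1 moved from place 2 to place 6 and TAL1 from place 9 to place 4. GATA1 and KLF1 together held 54.9% of the summed member level in untreated cells and 37.5% with bort.

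**Figure D1:**
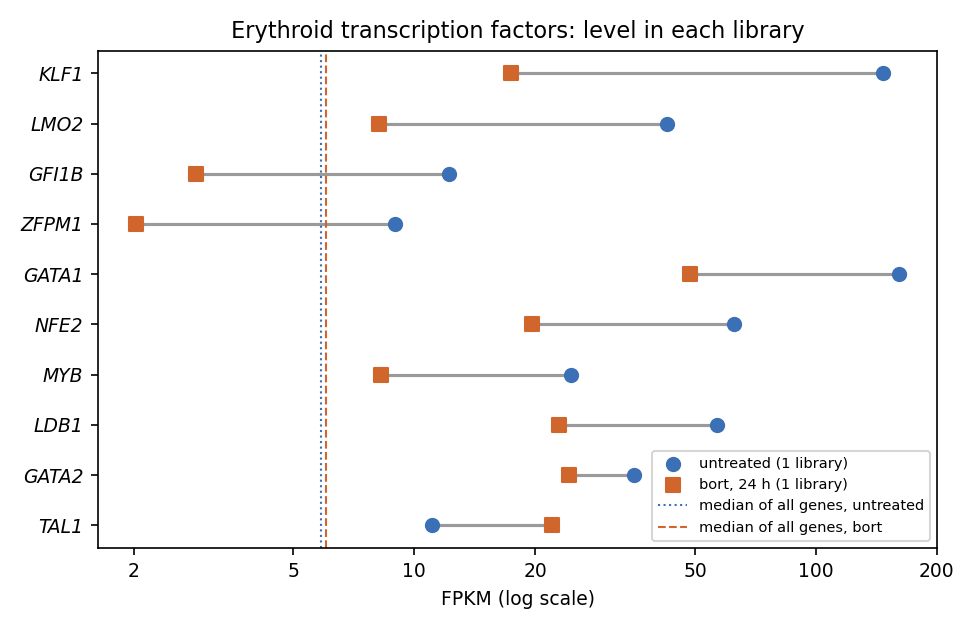
Level of each of the 10 erythroid transcription factors in FPKM on a log axis, as a blue circle for the untreated and an orange square for the bort-treated library joined by a line, with the median of all genes in each library as a vertical line and no error since each condition has 1 library. The square lies to the left of the circle for 9 genes and to the right of it for TAL1 (11.1 and 22.04 FPKM), and with bort GFI1B and ZFPM1 lie under the median.

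Fold changes were taken as the difference of log2(FPKM + 1), bort minus untreated, in which low genes appear to differ less than their FPKM do, and a gene was counted when it passed 2-fold. Of the 10 members 8 were lower by that measure and 0 were higher, with a median of −1.66 on the log2 scale. Over all genes 10.2% were lower (1125 genes) and 8.08% were higher (888 genes), with a median of 0.0049. Scaling both libraries to the total without the 20 most abundant genes turned this split to 931 lower and 1100 higher, and 8 members were lower under that scaling too. The 20 most abundant genes held 10.8% of the summed FPKM untreated and 21.6% with bort.

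**Figure D2:**
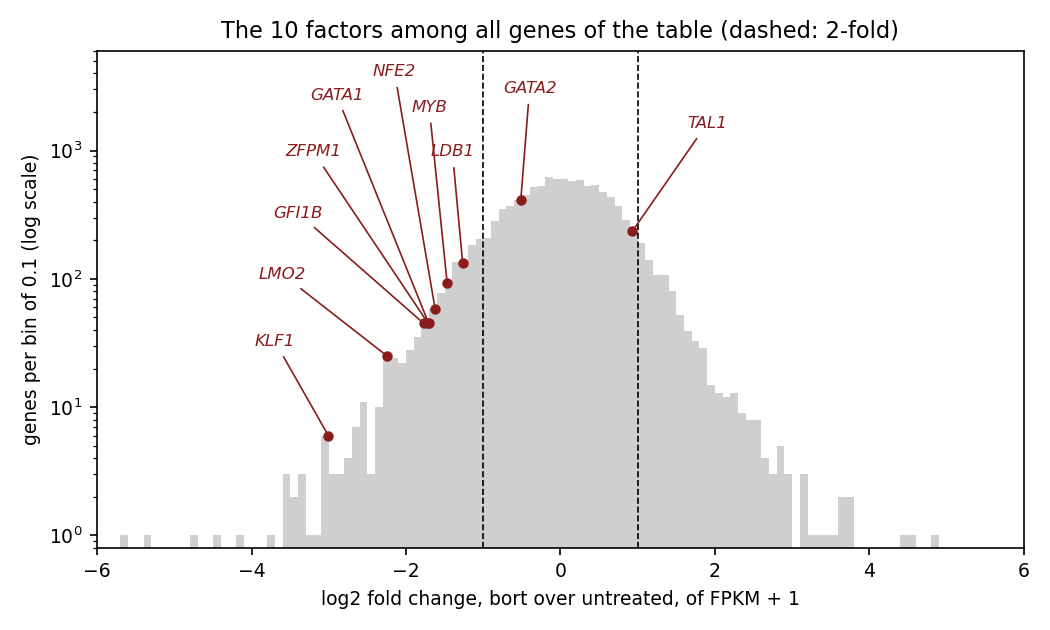
Histogram of the log2 fold change of FPKM + 1 (bort over untreated) of all genes in the table, in bins of 0.1 with the number of genes on a log axis, with the 10 members marked by name at the top of their bins and dashed lines at 2-fold. KLF1 lies furthest to the left at −3.01, 8 members lie beyond the left dashed line, GATA2 lies inside both lines, and TAL1 at 0.93 lies just inside the right one.

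The GATA factors and their cofactor were considered first. GATA1 was at 161 FPKM in untreated and 48.7 FPKM in bort-treated cells, a fold change of −1.71 on the log2 scale. It passed from a level above 98.4% of all genes to one above 94.3%, so it remained an abundant transcript with bort. GATA2, the GATA factor of stem and progenitor cells that GATA1 displaces during maturation, was at 35.2 and 24.3 FPKM, a fold change of −0.51 that did not reach 2-fold. The ratio of GATA1 to GATA2 was 4.59 in untreated and 2.003 in bort-treated cells. ZFPM1, also named FOG1, is the zinc finger cofactor that binds the amino-terminal finger of GATA1. It was at 8.93 FPKM untreated and 2.03 FPKM with bort, a fold change of −1.71. GATA1 exceeded ZFPM1 18.1-fold in untreated and 24.0-fold in bort-treated cells, and this ratio was 16.3 and 16.4 with 1 FPKM added to each level.

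KLF1, the activator of adult beta-globin and of many red cell membrane genes, had the lowest fold change of the members. It was at 147 FPKM untreated and 17.4 FPKM with bort, 8.44-fold lower in FPKM and −3.01 on the log2 scale. Of the 10987 genes 22 had a more negative fold change. KLF1 was close to GATA1 in untreated cells, with a ratio of KLF1 to GATA1 of 0.912, and stood at 0.358 of it with bort. Its position among all genes went from above 98.3% to above 80.03% of them.

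The promoters of GATA1, KLF1, TAL1 and GFI1B are shown because these factors are known to bind the regulatory DNA of one another's genes in erythroid cells. Sequences were taken from RefSeq (GRCh38.p14), which had a start for 8 of the 10 members in 11 windows. NFE2 and LMO2 had none. Each window holds the 250 bases before an annotated start, 5′ to 3′ on the strand of the gene, and capitals mark the GATA letters AGATAA and AGATAG and their forms TGATAA and TGATAG on either strand. KLF1 (chr19:12887202-12887451, minus strand) held 2 matches, and the first window of TAL1 (chr1:47232336-47232585, minus strand) and the second of GFI1B (chr9:132978444-132978693, plus strand) held 1 each. GATA1 (chrX:48786340-48786589, plus strand) held 0. For TAL1 and GFI1B the window with a match is printed, and the other window of each held 0.
KLF1: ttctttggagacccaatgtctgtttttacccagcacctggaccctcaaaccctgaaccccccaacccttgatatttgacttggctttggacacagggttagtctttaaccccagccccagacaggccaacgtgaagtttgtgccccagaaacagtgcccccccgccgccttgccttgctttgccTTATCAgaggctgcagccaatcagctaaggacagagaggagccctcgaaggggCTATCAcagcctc
TAL1: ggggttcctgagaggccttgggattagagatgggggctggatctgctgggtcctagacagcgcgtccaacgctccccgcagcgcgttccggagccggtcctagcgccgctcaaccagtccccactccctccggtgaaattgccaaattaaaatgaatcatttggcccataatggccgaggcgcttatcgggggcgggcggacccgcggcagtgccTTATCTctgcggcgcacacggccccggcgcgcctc
GFI1B: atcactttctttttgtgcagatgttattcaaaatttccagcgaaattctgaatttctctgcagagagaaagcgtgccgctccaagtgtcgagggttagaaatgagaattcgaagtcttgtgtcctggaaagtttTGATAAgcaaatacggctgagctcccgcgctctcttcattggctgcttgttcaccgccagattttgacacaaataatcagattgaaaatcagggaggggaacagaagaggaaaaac
GATA1: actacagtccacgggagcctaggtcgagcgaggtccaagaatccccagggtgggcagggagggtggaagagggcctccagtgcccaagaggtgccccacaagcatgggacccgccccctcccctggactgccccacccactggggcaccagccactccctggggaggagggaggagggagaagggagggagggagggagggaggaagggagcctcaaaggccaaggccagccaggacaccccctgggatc
GATA letters occurred in 3 of the 11 member windows and in 22.3% of the 35116 windows of all genes. CACCC box letters, searched as CCNCNCCC on both strands, occurred in 8 of 11 windows and in 53.4% of all windows. E-box letters, searched as CANNTG, which reads the same on both strands, occurred in 5 of 11 and in 61.8%. In the GATA1 window CCNCNCCC occurred 4 times, and no GATA match in the printed windows shared a base with a match of either other motif. The matches describe letters in these windows and were not compared with binding.

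The other DNA-bound and bridging members of the GATA1 complex did not share 1 direction. TAL1, the basic helix-loop-helix protein that pairs with E proteins, was at 11.1 FPKM untreated and 22.04 FPKM with bort. Its level with bort was 1.99 times the untreated level, and its fold change of 0.93 lay just under 2-fold. It passed 2-fold after upper quartile scaling (1.03) and after scaling to the total without the 20 most abundant genes (1.04). LMO2, which bridges TAL1 and the GATA factor without binding DNA, was at 42.5 FPKM untreated and 8.18 FPKM with bort, a fold change of −2.24. LDB1, the partner of LMO2 that brings distant elements together by self-association, was at 56.6 and 22.9 FPKM, a fold change of −1.27. The ratio of TAL1 to LMO2 was 0.261 in untreated cells and 2.70 in bort-treated cells, so the order of these 2 genes was opposite in the 2 libraries. The ratio of LMO2 to LDB1 was 0.751 and 0.357. The annotated exons of TAL1 overlap those of AL135960.1 on the opposite strand, a gene that the table did not list.

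NFE2 is the large subunit of a heterodimer with small MAF proteins that acts on globin genes in red cells and on platelet formation in megakaryocytes. It was at 62.7 FPKM untreated and 19.7 FPKM with bort, a fold change of −1.62. All 7 genes listed as its partners and relatives were measured, and 0 were lower and 2 higher by 2-fold or more, with a median of 0.51. BACH1, a repressor that competes for the same small MAF partners, was at 3.90 FPKM untreated and 9.67 FPKM with bort, and its relative BACH2 at 0.660 and 4.56 FPKM. With the GC trend removed BACH1 was at 0.65 and 1 gene of this list was higher, beside 6.92% of all genes. A filter that required 1 FPKM in each library also left 1. The small MAF genes MAFG (25.4 and 36.6 FPKM) and MAFK (5.74 and 7.77 FPKM) had fold changes of 0.51 and 0.38, under 2-fold, and MAFG shares exon bases with SIRT7. MAFF, another small MAF gene, was at 0.476 and 1.22 FPKM (0.59). In FPKM MAFF was 2.56-fold higher, and without a pseudocount 3 genes of this list were higher. The lowest fold change of this list was that of NFE2L2, the factor of the oxidative stress response, at 0.08.

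GFI1B and MYB complete the set. GFI1B is a repressor that recruits the KDM1A and RCOR1 complex in erythroid and megakaryocytic cells. It was at 12.2 FPKM untreated and 2.86 FPKM with bort, a fold change of −1.77. The exons of GFI1B overlap TSC1 on the opposite strand, and TSC1 was at 3.39 and 6.69 FPKM, in the other direction from GFI1B. MYB, which maintains proliferation of blood progenitors, was at 24.6 FPKM untreated and 8.26 FPKM with bort, a fold change of −1.47. Its exons overlap the antisense gene MYB-AS1, which was not listed. None of the 10 members shared exon bases with another protein-coding gene on its own strand.

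Fold changes across the table moved with the base composition of the transcripts, and the members lay on the GC-rich side. Across 10907 genes the Spearman correlation of fold change with GC content was −0.49, given as a description since genes of the same libraries are not independent replicates. The genes were divided into 10 bins of equal size by GC content. In bin 1, with the lowest GC content, 0.733% were lower and 20.2% higher by at least 2-fold, and in bin 10 31.0% were lower and 2.29% higher. The median GC content was 58.1% for the members and 49.1% for all genes, and 9 of the 10 members lay above the latter. KLF1 (65.7%) and ZFPM1 (69.0%) fell in bin 10. MYB (43.9%) fell in bin 4, where 2.93% of genes were lower.

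With the GC trend removed, 6 of the 10 members were lower by 2-fold or more, among 6.11% of all genes, and 1 was higher, among 6.92%. The 6 were KLF1 (−2.35), LMO2 (−1.96), MYB (−1.66), GFI1B (−1.46), NFE2 (−1.36) and GATA1 (−1.26), and the median of the members was −1.31. LDB1 (−0.86) and ZFPM1 (−0.90) no longer reached 2-fold. TAL1 passed it at 1.13. GATA2 was at −0.10, and it had no direction common to all settings, since scaling and trend removal together gave 0.0078.

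**Figure D3:**
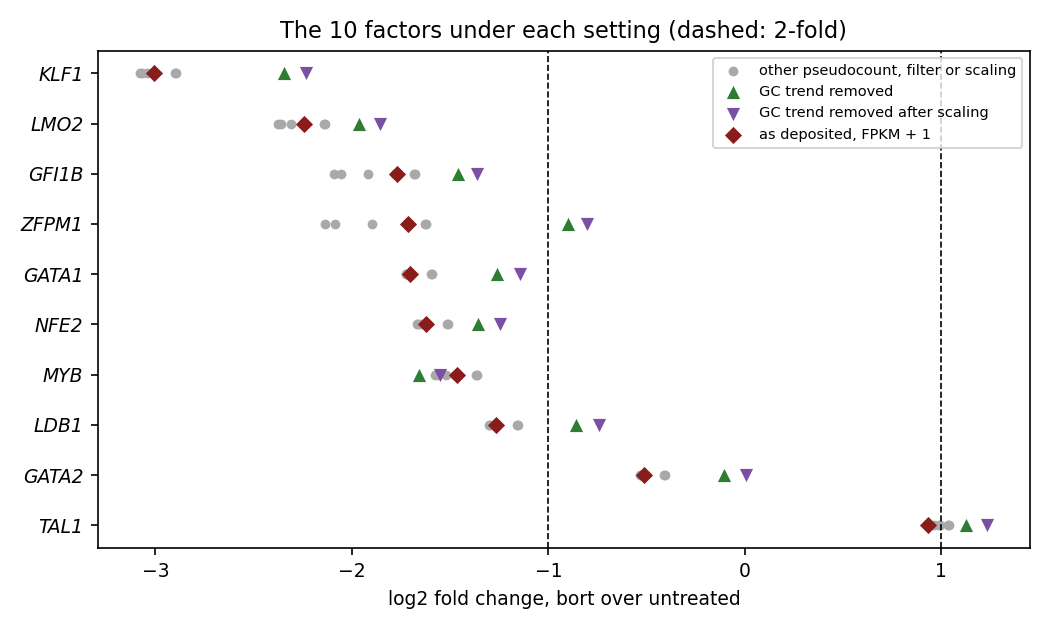
Log2 fold change of each member (bort over untreated) as deposited with FPKM + 1 (diamond), with another pseudocount, filter or scaling (grey circles), and with the GC trend removed without (upward triangle) or after scaling (downward triangle), with dashed lines at 2-fold. KLF1 spans −3.08 to −2.23, TAL1 spans 0.93 to 1.23, and LDB1, ZFPM1 and TAL1 have points on both sides of a 2-fold line.

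The other genes of the network were taken from lists of known partners, targets and lineage factors, and a few are named for their role after their values were seen. The shares over all genes, 10.2% lower and 8.08% higher, are the background for the counts of every list as deposited. For counts with the GC trend removed the shares are 6.11% lower and 6.92% higher. Of 30 partners and cofactors of the GATA1 and TAL1 complex 29 were listed, and 4 were lower and 1 higher by 2-fold or more, with a median of −0.12. With the GC trend removed 3 were lower, beside 6.11% of all genes, and 2 with scaling and trend removal together. CBFA2T3, the ETO2 corepressor of that complex, was at 18.5 FPKM untreated and 2.11 FPKM with bort (−2.65). LYL1, the close relative of TAL1, was at 76.8 and 12.4 FPKM (−2.54), so the ratio of TAL1 to LYL1 was 0.144 in untreated and 1.78 in bort-treated cells. SSBP4, of the LDB1-binding SSBP family, was at 62.6 and 21.1 FPKM (−1.52, and −0.74 with the GC trend removed), and MBD3, a subunit of the NuRD complex whose exons overlap AC005943.1, at 22.4 and 7.15 FPKM (−1.52). RUNX1, the factor of definitive haematopoiesis, was the 1 higher gene, at 2.47 and 7.05 FPKM (1.21). The E proteins that pair with TAL1 were under 2-fold on the log2(FPKM + 1) scale, with TCF3 at 37.0 and 18.4 FPKM (−0.97) and TCF12 at 4.11 and 5.16 FPKM (0.27). In FPKM TCF3 was 2.02-fold lower, and with no pseudocount 5 genes of this list were lower. The GFI1B partner KDM1A was at 42.2 and 25.7 FPKM (−0.69) and RCOR1 at 9.21 and 10.2 FPKM (0.14).

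Of 20 other transcription factors used by erythroid cells 18 were listed, and 3 were lower and 3 higher by 2-fold or more, with a median of −0.31. STAT5A, a mediator of erythropoietin signalling, was at 74.7 FPKM untreated and 11.1 FPKM with bort (−2.64). IKZF1 (−1.48) and NFIX (−1.30) were lower as well, and NFIX was at −0.90 with the GC trend removed. KLF6 was at 2.65 FPKM untreated and 31.5 FPKM with bort (3.16), and HBP1 (2.17) and FOXO3 (1.33) were also higher. BCL11A and SOX6, repressors of fetal globin, were not among the listed genes.

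The factors of the neighbouring lineages were listed less completely. Of 19 transcription factors of myeloid and monocytic cells 9 were listed, CEBPA, IRF8 and HOXA9 not among them, and 3 were higher and 1 lower past 2-fold, with a median of 0.80. The higher ones were CEBPG at 7.22 and 20.4 FPKM (1.38), KLF4 at 0.857 and 6.69 FPKM (2.05) and KLF2 at 0.0834 and 2.05 FPKM (1.49). KLF4 and KLF2 were under 1 FPKM untreated, and a filter that required 1 FPKM in each library left 1 higher factor, CEBPG. CEBPD was lower at 3.89 and 1.13 FPKM (−1.20), and with the GC trend removed it was at −0.34. SPI1, the factor antagonised by GATA1, was at 4.42 FPKM untreated and 8.44 FPKM with bort, a fold change of 0.80 that did not reach 2-fold. CEBPB, a C/EBP protein of monocytic maturation, was at 20.3 and 41.0 FPKM (0.98), although 2.02-fold higher in FPKM. Without a pseudocount 5 factors of this list were higher. With the GC trend removed SPI1 (1.43) and CEBPB (1.66) passed 2-fold. In that setting 5 factors of this list were higher and 0 lower, beside 6.92% and 6.11% of all genes. The summed level of the monocytic and myeloid markers was higher with bort too, and its part in these values was not tested. Of 10 symbols of megakaryocytic factors 5 were listed, FLI1 not among them. MKL1, which was listed, and MRTFA, which was counted as not listed, are symbols of the same gene. RUNX1 was higher, and SRF (−0.96) was under 2-fold on the log2(FPKM + 1) scale, although 2.02-fold lower in FPKM. MEF2C, at 1.41 and 0.461 FPKM (−0.72), was 3.06-fold lower in FPKM and passed 2-fold with the GC trend removed (−1.17).

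Genes known to be bound by GATA1, TAL1 or KLF1 in red cells were compared last. Of 40 such genes 36 were listed, and 11 were lower and 0 higher by 2-fold or more, with a median of −0.78. Removal of the GC trend gave 11 and 0 too, beside 6.11% and 6.92% of all genes, with a median of −0.38. These 11 were not all the same genes. EPOR no longer passed 2-fold, while TFRC, at −0.95 as deposited, passed it at −1.26. Among the genes of the membrane skeleton SPTB (beta-spectrin) was at 16.1 FPKM untreated and 1.73 FPKM with bort (−2.65), and ANK1 (ankyrin) at 28.0 and 10.1 FPKM (−1.39). Blood group and membrane genes that were lower were GYPC (−1.69), XK (−1.27) and RHD (−1.06). The receptor genes TFR2 and EPOR were at 25.5 and 4.50 FPKM (−2.27) and at 8.43 and 2.83 FPKM (−1.30), where EPOR shares exon bases with RGL3 and was at −0.94 with the GC trend removed. PKLR, the red cell pyruvate kinase, was at 43.4 and 9.16 FPKM (−2.13), and BCL2L1, the survival gene of late erythroblasts, at 43.2 and 15.3 FPKM (−1.44).

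Of the 8 globin genes 1 was lower by 2-fold or more, 0 were higher, and 5 lay below 0. HBZ, the embryonic zeta-globin whose exons overlap HBM, was at 584 FPKM untreated and 158 FPKM with bort (−1.88). HBE1, the embryonic epsilon-globin whose exons overlap HBG2, was at 425 and 710 FPKM (0.74), the highest fold change of the targets. The fetal gamma-globin genes HBG1 and HBG2, near-identical copies that share reads, had fold changes of 0.05 and −0.02. The adult alpha-globin genes HBA1 and HBA2, also near-identical, were at 593 and 325 FPKM (−0.86) and at 294 and 161 FPKM (−0.86). HBB, the adult beta-globin, was at 1.63 and 0.456 FPKM (−0.85), and HBD, the delta-globin, at 7.34 and 9.51 FPKM (0.33). In FPKM HBB was 3.56-fold lower. A pseudocount of 0.5 FPKM, of 0.1 FPKM or none gave 2 globin genes lower by 2-fold or more, while the other settings kept 1. ALAS2, the erythroid enzyme of the first step of haem synthesis, was at 16.7 and 15.6 FPKM (−0.09), and RHAG, a membrane protein of the Rh complex, at 222 and 363 FPKM (0.71). The number of globin genes below 0 was 4 after scaling to the total without the 20 most abundant genes and 6 with the GC trend removed.

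The genes with levels nearest to GATA1 and KLF1 were sought among 10895 protein-coding genes, as the distance in log2(FPKM + 1) over the 2 libraries. CCDC86 (165 and 50.03 FPKM, distance 0.049), YDJC (0.055) and MRPS34 (0.057) were nearest to GATA1. KLF1 had no gene as close as these, with EGFL7 (91.5 and 15.3 FPKM) at a distance of 0.70, LAGE3 at 0.78 and TRAP1 at 0.81.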

How the data were processed

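Per the study's methods, mRNA selected by its poly-A tail from bort-treated and untreated THP1 cells was sequenced. The 24 h of treatment come from the sample labels, which name 1 library per condition. The study's methods name a stranded KAPA kit and the labels an Illumina TruSeq kit, so the use of strand is uncertain. Alignment by the authors used HISAT2 2.0.4. Transcript abundance was then quantified with StringTie 1.2.3, which gave the FPKM values deposited for each gene. The submitters' processing notes give GRCh37, and the annotation release is not given in the sources used here. In every listed gene the higher of both values was at least 0.501 FPKM, so genes not listed may have been filtered out.

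Fold changes were computed as the difference of log2(FPKM + 1), with a threshold of 2-fold and no test, using Python 3.11.15, numpy 2.4.6, pandas 2.3.3, statsmodels 0.14.6 and matplotlib 3.10.9. GC content came from the longest protein-coding transcript per gene in GENCODE 29, or the longest of any kind where none was protein-coding. It was found for 10907 genes (99.3%), and its trend was removed with a lowess of span 0.3. Exon overlaps came from the same release. Calculations were tested on simulated data. Alternatives covered the pseudocount, threshold, filter, scaling and GC trend.

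The members and all lists were chosen with earlier results of these data known. Named are all members, each list gene past 2-fold, the highest and lowest gene of each list at 2 FPKM or more, and the 3 genes nearest to GATA1 and KLF1. The level of 1 listed target gene is not reported here.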

Additional observations from a re-analysis of the deposited data

How the results depend on the processing

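No paired analysis was possible because the comparison rests on a single library of each kind. Leaving out a library could not be tried either. Of the results on the members and the counts of all genes, 121 values under an alternative kept their direction and their side of 2-fold or lay within 1.5 times the original count, 15 moved further, 4 passed the threshold newly, 4 no longer passed it and 1 turned direction. All 54 values of the medians of the 6 other lists lay within 1.5-fold of the original. Among them the median of the megakaryocytic factors turned from −0.060 to 0.046 with the 1 FPKM filter and to 0.043 and 0.048 under the upper quartile and total scalings. The median of the myeloid factors went from 0.80 past 2-fold with a pseudocount of 0.1 FPKM (1.01) or none (1.02), with the GC trend removed (1.19) and under the combination named below (1.30). Of the counts within the lists 103 were within 1.5 times the original and 29 moved further. The median of all genes moved by 0.092 or less on the log2 scale under any scaling. TAL1 passed 2-fold under upper quartile scaling (1.03), scaling to the total without the 20 most abundant genes (1.04), removal of the GC trend (1.13) and the last 2 together (1.23), a combination chosen after seeing the data. LDB1 was at −0.86 and ZFPM1 at −0.90 with the GC trend removed, and at −0.75 and −0.81 under the combination, where GATA2 turned to 0.0078. The number of members higher was then 1 in each of these settings and at a threshold of 1.5-fold. At 4-fold 2 members were lower. Over all genes, 1576 were higher with a pseudocount of 0.1 FPKM and 1654 higher and 1708 lower with none. The numbers were 2282 and 2378 at 1.5-fold and 92 and 135 at 4-fold. With the GC trend removed 666 were lower, and 521 under the combination. The cause of these shifts was not tested beyond what each setting changes by its construction.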

Other observations

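KLF1 was set beside the other members of its family, a group chosen after values had been seen. The KLF proteins share zinc fingers at their carboxyl end and bind CACCC and GC-rich letters. Of the 13 KLF genes listed, 4 were higher with bort and 3 lower, past 2-fold, beside 8.08% and 10.2% of all genes. The higher ones were KLF6 (2.65 FPKM untreated and 31.5 FPKM with bort), KLF4 (0.857 and 6.69 FPKM), KLF2 (0.0834 and 2.05 FPKM) and KLF7 (0.192 and 1.57 FPKM). Beside KLF1 the lower ones were KLF16 (37.8 and 13.6 FPKM) and KLF15 (1.95 and 0.379 FPKM). Of these genes KLF4, KLF2 and KLF7 were under 1 FPKM untreated and KLF15 was under 1 FPKM with bort. They would not pass a filter of 1 FPKM in each library. Removal of the GC trend left 3 higher and KLF1 as the 1 lower gene, beside 6.92% and 6.11% of all genes, with KLF16 at −0.66. The summed level of the family was 216 FPKM untreated and 107 FPKM with bort, of which KLF1 held 68.2% and 16.3%. KLF6 was therefore the highest KLF transcript with bort, above KLF1 at 17.4 FPKM.

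Among the relatives of the other members LYL1 was lower by 2-fold or more on the log2(FPKM + 1) scale, as given above. The following were not on that scale. GATA6 was at 1.12 FPKM untreated and 1.19 FPKM with bort. GATA5 was at 1.01 and 0.253 FPKM, a fold change of −0.68, although its FPKM alone were lower by more than 2-fold. TAL2 was at 0.694 and 0.927 FPKM, ZFPM2 at 4.28 and 4.58 FPKM and LMO4 at 3.35 and 2.72 FPKM. MYBL2, a cell cycle relative of MYB, was the most abundant of them at 132 FPKM untreated and 81.2 FPKM with bort, a fold change of −0.69. MYB stood at 24.6 and 8.26 FPKM.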
